A study of Mus musculus with 4 samples.

Results

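The mitochondrial chromosome of the mouse is a small circle that encodes proteins of the respiratory chain, 2 ribosomal RNAs and the transfer RNAs needed to translate them. The genes described here are those whose name begins with mt- and whose position lies on that chromosome in any of the 3 deposited tables, and 15 of 22084 genes met this rule. They comprise 12 of the 13 annotated protein genes, both rRNA genes (mt-Rnr1 and mt-Rnr2) and 1 of the 22 annotated tRNA genes (mt-Tp, for proline). The other 22 genes annotated on this chromosome, mt-Atp8 among them, did not meet this rule and are not analysed here. All 15 were listed in all 3 tables, and all 15 entered the tests.

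The RNA came from telencephalic tissue, the forebrain region that forms cortex and basal ganglia, of B6D2F2 mouse embryos at stage E13.5 (the extraction protocol names cerebral cortex). KO26F and KO23M were labelled TCF20-/-, WT22M is wild type by its title and TCF20+/- by its genotype field, and WT25F was labelled TCF20+/+. WT22M and WT25F are called carriers here, because each has at least 1 intact copy of Tcf20 whichever label of WT22M holds. The labels describe neither the knockout allele nor whether the embryos were littermates, so the p-values cover the spread between these libraries, which may be technical in part. Tcf20, a nuclear protein and the targeted gene, stood at 98.6 CPM (counts scaled to 1000000 per library) in KO26F and 104 in KO23M, against 111 in WT22M and 118 in WT25F. The groups did not overlap but lay close, and a count over the whole gene does not check the labels where the deleted part is not given. Totals ran from 17791641 to 18509743 counts per library, and Tbr1, a transcription factor of early neurons of the cortex, stood between 293 and 362 CPM in all 4.

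Both strands of the mitochondrial chromosome are copied into long RNAs that are cut into single gene products, in most places at the tRNAs that lie between the genes. Polrmt is the polymerase, Tfam and Tfb2m start transcription, Tefm keeps it going, and Lrpprc with Slirp stabilises the messenger RNAs, to which Mtpap adds poly(A) tails. All of these factors are nuclear genes. Most of the tails are short, and in some messengers they complete the stop codon. Of the 12 protein genes, 9 ended in a full TAA or TAG codon and 3 had 1 base past their last full codon, a T. The final bases of these 3 genes are shown because the T in capitals becomes a stop codon only with the tail (GRCm38, 5′ to 3′, annotated transcripts of GENCODE vM21).
mt-Co3: tattgatgaggatctT
mt-Nd4: acaggcctgacaataT
mt-Cytb: ctaaaattatatccaT

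A stretch of chromosome 1 holds a nuclear copy of part of the mitochondrial chromosome, annotated in the tables as a row of unprocessed pseudogenes. The sequences below show how close this copy is. The first 300 bases of mt-Co2 (MT:7013-7312, plus strand), which encodes subunit 2 of cytochrome c oxidase, and of Gm28661 (chr1:24615266-24615565, minus strand) were the same letter for letter, and the 681 aligned bases held 0 mismatches.
mt-Co2: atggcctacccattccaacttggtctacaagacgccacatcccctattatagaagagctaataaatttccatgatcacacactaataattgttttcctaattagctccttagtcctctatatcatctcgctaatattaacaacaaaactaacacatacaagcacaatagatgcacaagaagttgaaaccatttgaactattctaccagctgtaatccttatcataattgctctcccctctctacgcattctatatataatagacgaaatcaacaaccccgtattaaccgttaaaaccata
In mt-Nd3, a complex I subunit, 1 base of 345 differed from Gm28438 (T3C, counted from the first base of the gene). The first 60 bases of each are shown with that base in capitals (MT:9459-9518, plus strand, and chr1:24613060-24613119, minus strand).
mt-Nd3: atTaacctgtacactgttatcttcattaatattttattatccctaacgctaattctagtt
Gm28438: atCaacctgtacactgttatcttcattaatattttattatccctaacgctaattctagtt
Gm29216 matched the last 492 bases of mt-Co1, the catalytic subunit of cytochrome c oxidase, with 6 mismatches, all near the start of the shared part (T1056A, C1057T, A1059G, A1060G, C1062A and A1066T). They are in capitals in the first 60 shared bases (MT:6381-6440, plus strand, and chr1:24616138-24616197, minus strand).
mt-Co1: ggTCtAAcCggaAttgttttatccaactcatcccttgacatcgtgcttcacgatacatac
Gm29216: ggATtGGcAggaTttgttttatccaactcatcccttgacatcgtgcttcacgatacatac
Gm28439 matched the first 876 bases of mt-Nd4, another complex I subunit, with 0 mismatches and went no further. The capitals below mark bases of mt-Nd4 that lie past the end of the copy (MT:11013-11072, plus strand).
mt-Nd4: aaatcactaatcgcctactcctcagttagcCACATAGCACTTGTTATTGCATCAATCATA
The copies Gm10925 of mt-Atp6 (678 aligned bases), Gm28437 of mt-Co3 (783) and Gm10222 of mt-Nd4l (294) also held 0 mismatches.

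The genes differed far more in level from each other than any of them did between libraries. Levels between genes are compared as CPM per kb of gene. They are levels in the libraries, not in the tissue. Library steps that select or remove some RNAs, such as rRNA, can shift them. The highest were mt-Co1 at 5608 ± 214 and mt-Cytb, the complex III subunit cytochrome b, at 5415 ± 134 CPM per kb (SD over 4 libraries), and their ranges overlapped. Next came mt-Nd1 at 3956 ± 168, mt-Nd4 at 1919 ± 83.8 and mt-Nd2 at 1622 ± 117 CPM per kb, all complex I subunits, with ranges that did not touch. mt-Nd6, the only protein gene encoded on the minus strand, stood at 702 ± 25.2 and mt-Nd5 at 524 ± 54.6 CPM per kb. The rRNA genes lay lower, at 345 ± 41.1 CPM per kb for mt-Rnr1 (small subunit) and 225 ± 24.04 for mt-Rnr2 (large subunit), and mt-Tp at 221 ± 30.6 overlapped mt-Rnr2. Then followed mt-Co2 at 86.0 ± 6.79, mt-Co3 at 50.9 ± 2.75, mt-Atp6 at 37.6 ± 3.94, mt-Nd3 at 7.88 ± 2.11 and mt-Nd4l at 2.88 ± 0.326 CPM per kb. Only the pairs mt-Co1 with mt-Cytb and mt-Rnr2 with mt-Tp overlapped as neighbours in this order.

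**Figure D1:**
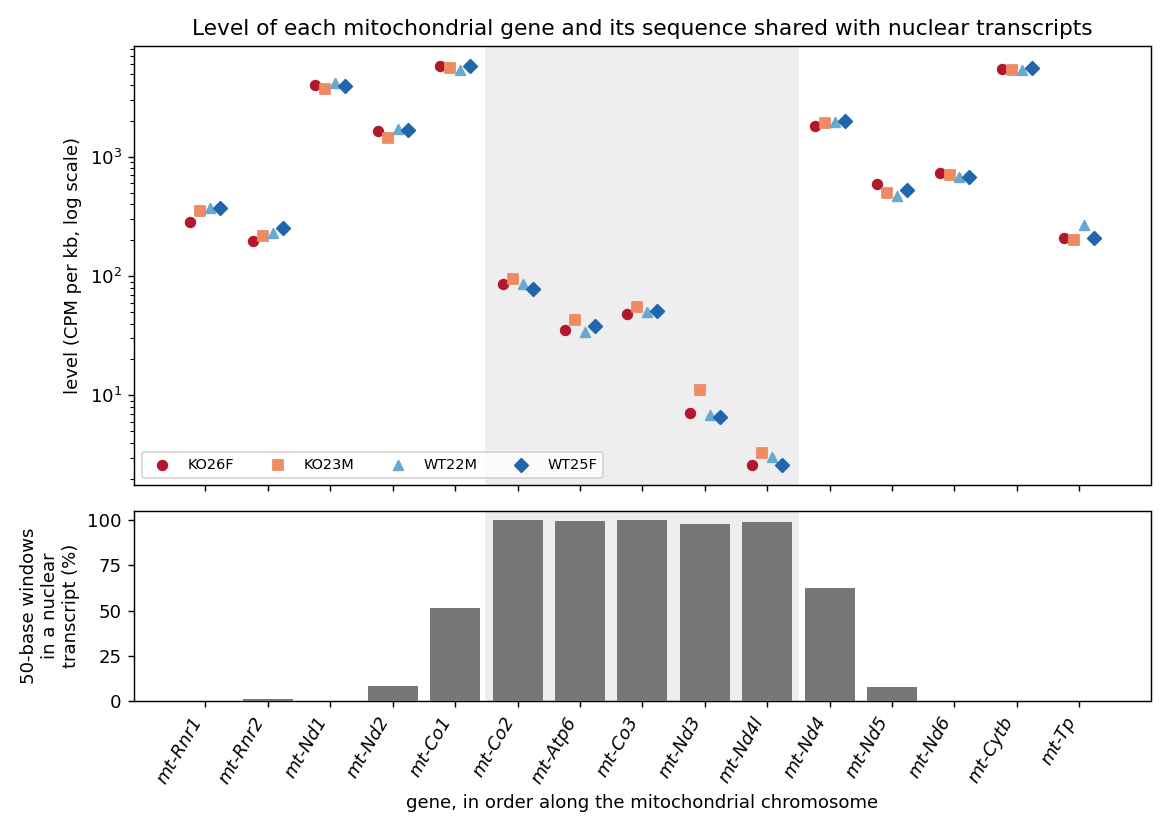
Top: level of each gene in CPM per kb (log scale), 1 point per library, in order along the chromosome. Bottom: percent of the gene's 50-base windows that occur in a nuclear transcript. Grey marks the 5 genes with 98.0 to 100% of windows shared, whose mean levels ran from 2.88 to 86.0 CPM per kb, against 221 to 5608 in the other 10.

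The 5 lowest genes are neighbours in the order of the 15 genes and are those with a near-complete copy on chromosome 1. mt-Atp8, which is not analysed here, lies between mt-Co2 and mt-Atp6. Of all 50-base windows, 100% in mt-Co2, 99.5% in mt-Atp6, 99.9% in mt-Co3, 98.0% in mt-Nd3 and 98.8% in mt-Nd4l occurred in a nuclear transcript of GENCODE vM21 on either strand. In the other 10 genes this share ran from 0% (mt-Rnr1, mt-Nd1, mt-Nd6, mt-Cytb and mt-Tp) to 51.1% in mt-Co1 and 62.2% in mt-Nd4. With windows of 100 bases it was 30.8% in mt-Co1 and 60.8% in mt-Nd4. The 5 copied genes together gave 0.472 to 0.577% of the mitochondrial counts per library. Of these, mt-Co2 and mt-Co3 encode core subunits of cytochrome c oxidase, and mt-Atp6 one of ATP synthase. The sources used here do not say how a read with more than 1 matching place was counted, so the levels of these 5 genes are uncertain, and the part of the copy in their low level was not tested. With the CPM of the whole gene divided by the unshared 50-base windows alone, mt-Co1 stood at 11853, mt-Cytb at 5657 and mt-Nd4 at 5267 CPM per 1000 windows. Any reads counted in shared windows stay in these values. The windows were sought in annotated transcripts and not in the whole genome.

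The pseudogenes carried counts of the same size as these 5 genes. mt-Atp6, a subunit of the proton channel of ATP synthase, had 435, 542, 414 and 463 counts in KO26F, KO23M, WT22M and WT25F, while its copy Gm10925 (chromosome 1, 24613974 to 24614651) had 1243, 1294, 1097 and 1180 in the same order. The copy thus held 70.5 to 74.1% of the counts of both. For mt-Co2 the copy Gm28661 held 39.7 to 44.2%, for mt-Co3 the copy Gm28437 39.3 to 42.9%, for mt-Nd3 the copy Gm28438 65.9 to 78.4%, and for mt-Nd4l the copy Gm10222 50 to 59.0%. For mt-Nd4, whose second part has no copy, Gm28439 held 0.347 to 0.444%, and for mt-Co1 Gm29216 held 0.114 to 0.182%. Another full-length copy of mt-Co1 on chromosome 2, Gm13340, with 37 mismatches in 1545 bases, had 46 to 55 counts.

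**Figure D2:**
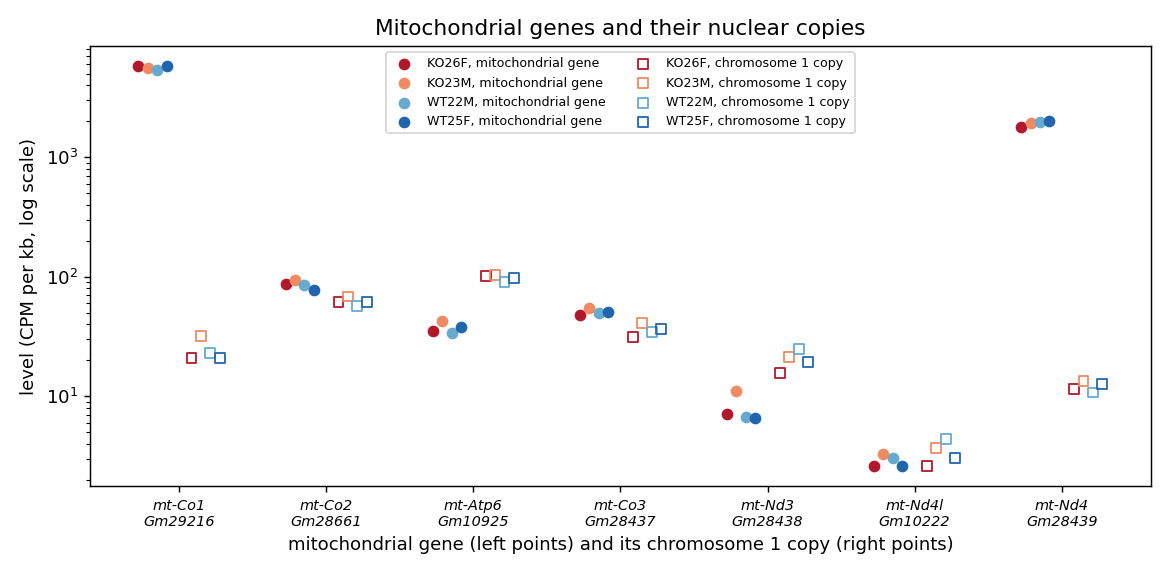
Level in CPM per kb (log scale) of 7 mitochondrial genes (filled circles) and their chromosome 1 copies (open squares), 1 point per library. The copy of mt-Atp6 averaged 98.0 CPM per kb against 37.6 in the gene, and that of mt-Co1 24.2 against 5608.

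The minus-strand gene mt-Nd6 differed from the other protein genes in base composition. It held 28.1% G and 5.97% C, while the other 11 protein genes held 7.996 to 16.1% G and 22.1 to 29.97% C on their own strand. The minus-strand genes mt-Nd6 and mt-Tp gave 1.56% of mitochondrial counts in KO26F, 1.56% in KO23M, 1.501% in WT22M and 1.42% in WT25F. The strand settings of the kit and of the counting are not stated, so RNA antisense to these genes cannot be told apart from them, and mt-Nd6 overlaps the end of mt-Nd5 by 14 bases. The tRNA of mt-Tp (MT:15356-15422, minus strand) is shown whole, as the one tRNA among the 15 genes; mature tRNAs are far shorter than a typical sequenced fragment.
mt-Tp: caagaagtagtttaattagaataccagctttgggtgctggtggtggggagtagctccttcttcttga
Its 67 bases collected 254 counts in KO26F, 247 in KO23M, 317 in WT22M and 250 in WT25F.

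The share of the library taken by mitochondrial RNA was nearly the same in all 4 libraries. It was 2.54% of all counts in KO26F (95% Clopper-Pearson interval 2.53 to 2.55), 2.45% in KO23M (2.44 to 2.45), 2.49% in WT22M (2.48 to 2.49) and 2.58% in WT25F (2.57 to 2.58). These intervals cover counting error only and leave out spread between embryos and library preparations. The reads carry no stated molecular identifiers, so repeated reads of the same molecule may make the intervals too narrow. The arms overlapped, with 2.49% ± 0.0646 in KO libraries and 2.53% ± 0.0649 in carriers (SD, n = 2 each), a difference of -0.0380 percentage points. An exact two-sided permutation test gave p = 0.667, where 2 against 2 libraries cannot go below 0.333. In bulk tissue, fewer mitochondria-rich cells and less mitochondrial RNA per cell cannot be told apart.

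Most of the mitochondrial counts came from few genes. mt-Co1, mt-Cytb, mt-Nd1, mt-Nd4 and mt-Nd2 together gave 91.4% of the mitochondrial counts in KO26F, 91.4% in KO23M, 91.7% in WT22M and 91.4% in WT25F. mt-Co1 was the gene with the most counts of all in KO26F and ranked 2 in the other 3 libraries, and mt-Cytb ranked 4 in each. By complex, the 7 complex I genes gave 37.5%, 36.8%, 38.9% and 37.2% of mitochondrial counts in KO26F, KO23M, WT22M and WT25F, and the 3 complex IV genes 35.7%, 35.5%, 33.5% and 34.8%. WT22M had the highest complex I share and the lowest complex IV share of the 4 libraries. mt-Co1 alone gave 35.3%, 35.0%, 33.2% and 34.5% of mitochondrial counts in KO26F, KO23M, WT22M and WT25F. The other complex IV genes, mt-Co2 and mt-Co3, have a near-complete nuclear copy and an uncertain level.

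**Figure D3:**
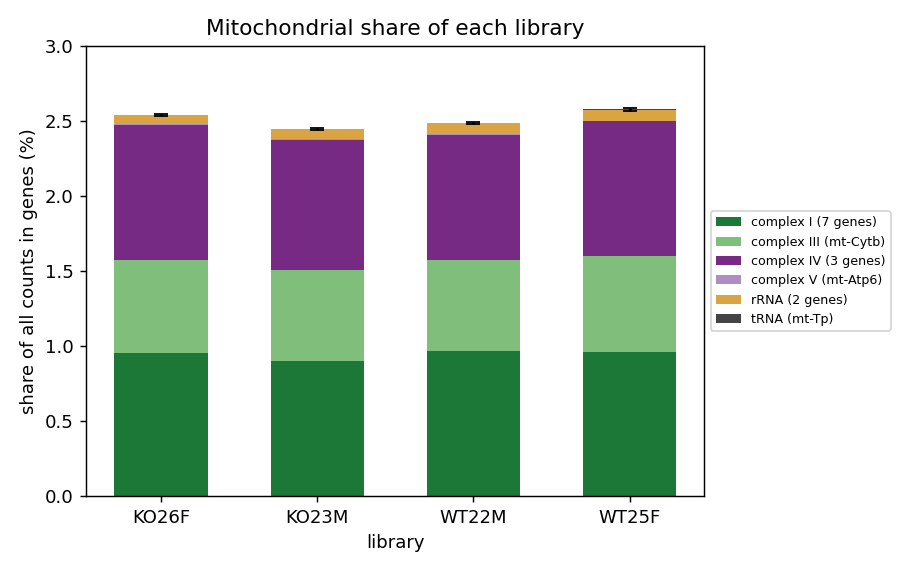
Share of all counts in each library (%) that fell in mitochondrial genes, stacked by respiratory complex and RNA class, with the 95% Clopper-Pearson interval of the total. The total stood at 2.54 and 2.45% in the KO libraries and at 2.49 and 2.58% in the carriers.

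Between KO libraries and carriers, 0 of the 15 mitochondrial genes passed the threshold. The test was edgeR's quasi-likelihood test with a Benjamini-Hochberg adjusted p under 0.05, which called 10 of 16252 genes (0.0615%, with 0.0308% higher and 0.0308% lower in KO). Log2 fold changes of the 15 genes ran from -0.22 to 0.44, with 8 genes on the higher side in KO (50.7% of all genes tested were), a median of 0.027 and standard errors of 0.088 to 0.51. The median over all genes tested was 0.0020. At an unadjusted p under 0.05 there was 1 mitochondrial gene, mt-Rnr2, against 464 of all genes (2.86%). DESeq2 called 0 of the 15 and 11 of all genes. In 7 of the 15 genes the arms did not overlap in CPM, 3 higher and 4 lower in KO. Of all genes tested, 27% did not overlap, 13.6% higher and 13.4% lower in KO. CPM uses library totals without the scaling factors of the test (0.986 to 1.02), so whether close arms overlap can depend on the scaling.

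The 2 rRNA genes had the lowest p of the 15. They form the scaffold of the ribosome that translates the mitochondrial messengers. mt-Rnr1 (ENSMUSG00000064337, MT:70-1024) stood at 272 CPM in KO26F and 336 in KO23M, against 353 in WT22M and 357 in WT25F. Both KO libraries lay below both carriers, and KO26F was farthest from the rest. The log2 fold change was -0.22 (SE 0.11, unadjusted p = 0.0586, edgeR adjusted p = 0.9997). mt-Rnr2 (ENSMUSG00000064339, MT:1094-2675) stood at 312 CPM in KO26F and 344 in KO23M, against 362 in WT22M and 403 in WT25F, again without overlap. Its log2 fold change was -0.22 (SE 0.10, unadjusted p = 0.0430, edgeR adjusted p = 0.9997).

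The rRNA values leaned on KO26F. Without it the log2 fold change was -0.062 for mt-Rnr1 and -0.14 for mt-Rnr2, and without KO23M it was -0.41 and -0.32 in the same order. Within the libraries with the title letter F, KO26F over WT25F gave a log2 ratio of -0.40 for mt-Rnr1 (95% counting interval -0.45 to -0.34) and -0.38 for mt-Rnr2 (-0.43 to -0.33). Within the letter M, KO23M over WT22M gave -0.068 (-0.12 to -0.017) for mt-Rnr1 and -0.069 (-0.12 to -0.019) for mt-Rnr2. Fitted with the title letter as a block, both passed the threshold (edgeR adjusted p = 0.0187 for mt-Rnr1 and 0.0272 for mt-Rnr2). That fit called 123 of 16252 genes, against 10 without the block, and leaves 1 residual degree of freedom. The letters are not stated to mark a litter or batch. The rRNA genes gave 2.30% of mitochondrial counts in KO26F and 2.78% in KO23M, against 2.88% in WT22M and 2.95% in WT25F. This measure needs no scaling between libraries. Whether library steps kept the same part of the rRNA in each library was not tested. Markers of meninges and mesenchyme, of which 8 of 8 were measured and 0 were at 0, were all on the lower side in KO (0 called, where 0.0615% of all genes were, and 3 at an unadjusted p under 0.05, where 2.86% of all genes were). Over all genes tested, 50.7% were on the higher side. The markers had summed levels of 329.9 CPM in KO26F and 343 in KO23M against 416 in WT22M and 409 in WT25F. Their part in the rRNA values was not tested. Some other marker lists leaned to a side as well. On the lower side in KO were 7 of 7 diencephalon and 6 of 8 microglia genes tested. So were 5 of 8 dissection stress, 3 of 9 erythroid, 3 of 10 telencephalon and 0 of 8 choroid plexus genes.

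**Figure D4:**
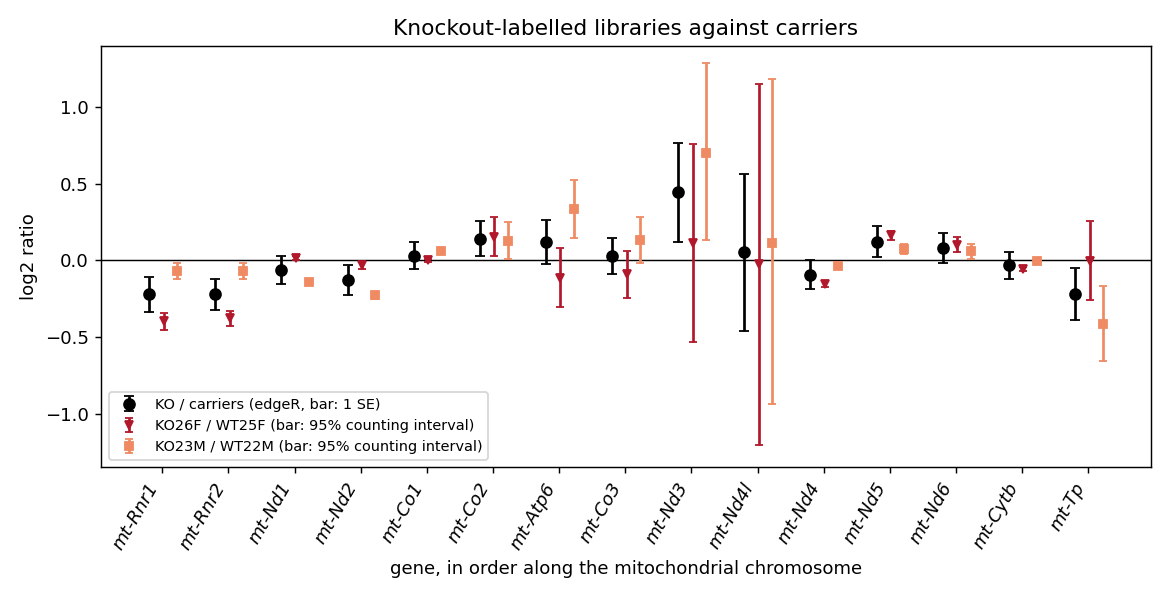
Log2 ratio of KO libraries to carriers for each gene: black, the edgeR estimate over all 4 libraries (bar, 1 SE); triangles, KO26F over WT25F; squares, KO23M over WT22M (bars, 95% counting intervals). mt-Rnr1 and mt-Rnr2 lie at -0.22, and KO26F over WT25F gives -0.40 and -0.38.

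The abundant messenger RNAs differed little between the arms. mt-Co1 (MT:5328-6872) stood at 8959 CPM in KO26F and 8574 in KO23M, against 8238 in WT22M and 8888 in WT25F. The arms overlapped, and WT22M was the lowest library (log2 fold change 0.031, SE 0.088, edgeR adjusted p = 0.9997). mt-Cytb stood at 6196 CPM in KO26F and 6072 in KO23M, against 6100.3 in WT22M and 6410.3 in WT25F, and gave the narrowest spread of all, a factor of 1.06 from lowest to highest. mt-Nd1 stood at 3836 CPM in KO26F and 3576 in KO23M, against 3961 in WT22M and 3770.1 in WT25F, so the arms overlapped here too.

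Among the other complex I genes, mt-Nd2 and mt-Nd4 were lower in both KO libraries than in both carriers. mt-Nd2 stood at 1719 CPM in KO26F and 1505 in KO23M, against 1768 in WT22M and 1745 in WT25F, with KO23M farthest from the rest (log2 fold change -0.13, SE 0.10). Without KO23M the mt-Nd2 value was -0.057, and without KO26F -0.21. mt-Nd4 stood at 2484 CPM in KO26F and 2638 in KO23M, against 2712 in WT22M and 2742 in WT25F (log2 fold change -0.093, SE 0.094). Its log2 fold change was -0.032 without KO26F and -0.16 without KO23M. In mt-Nd5 the arms overlapped, with 1089.5 CPM in KO26F and 905 in KO23M against 860.0 in WT22M and 966 in WT25F. The mt-Nd5 log2 fold change of 0.12 was 0.0035 without KO26F, 0.23 without KO23M, 0.058 without WT22M and 0.19 without WT25F. KO26F was highest there, and its mt-Nd5 counts were 43.9% of its mt-Nd4 counts, against 34.3% in KO23M, 31.7% in WT22M and 35.2% in WT25F. mt-Nd6 stood at 381 CPM in KO26F and 369 in KO23M, against 355 in WT22M and 353 in WT25F, without overlap and with a factor of 1.08 from lowest to highest (log2 fold change 0.080, SE 0.10).

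The 5 genes with a near-complete copy on chromosome 1 had few counts. In mt-Co2 the arms came close but did not overlap in CPM, before the scaling of the test. It stood at 59.2 CPM in KO26F and 64.2 in KO23M, against 58.9 in WT22M and 52.9 in WT25F (log2 fold change 0.14, SE 0.11). Leaving out KO26F gave 0.22, KO23M 0.056, WT22M 0.24 and WT25F 0.045. mt-Nd3 stood at 2.48 CPM in KO26F and 3.84 in KO23M, against 2.36 in WT22M and 2.28 in WT25F, with KO23M apart from the other 3 (log2 fold change 0.44, SE 0.32). Without KO23M that value was 0.070, and without KO26F 0.74. When each gene was summed with its copy, the log2 fold change was -0.056 in place of 0.44 for mt-Nd3 and -0.10 in place of 0.053 for mt-Nd4l. mt-Atp6 stood at 24 CPM in KO26F and 29.3 in KO23M, against 23.3 in WT22M and 25.8 in WT25F, and mt-Co3 at 37.7 and 42.8 in KO26F and KO23M against 39.1 and 39.9 in WT22M and WT25F. In both the arms overlapped and KO23M was highest. mt-Nd4l stood at 0.772 and 0.972 CPM in KO26F and KO23M, against 0.899 and 0.780 in WT22M and WT25F, on 14 to 18 counts per library.

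Each library pair with the same title letter gave its own value. Of the 15 genes, 11 were on the same side of 0 in KO26F over WT25F and in KO23M over WT22M. The share of all genes on the same side was not computed, so this count has no background. Among the 11, the 95% counting interval covered 0 in the F pair for mt-Co1, mt-Nd3 and mt-Tp and in the M pair for mt-Cytb. The brackets below are 95% counting intervals, which hold the scaling between libraries fixed and leave out spread between embryos. mt-Nd5 was on the higher side in both, at 0.16 (0.14 to 0.19) and 0.076 (0.044 to 0.11), and mt-Nd6 at 0.10 (0.052 to 0.15) and 0.059 (0.0095 to 0.11). In the edgeR fit of KO against carriers the SE was 0.10 for mt-Nd5 and 0.099 for mt-Nd6. mt-Nd2 was on the lower side in both, at -0.031 (-0.054 to -0.0082) and -0.23 (-0.25 to -0.21). mt-Tp was at -0.0010 in the F pair and at -0.41 (-0.66 to -0.17) in the M pair, since WT22M held the most counts of it.

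Against WT25F alone, 0 of 15 mitochondrial genes passed, while 0.345% of genes tested did (0.166% higher and 0.178% lower). The lowest unadjusted p was 0.0591, for mt-Rnr2 (log2 fold change -0.28, SE 0.15), and 0 of the 15 had an unadjusted p under 0.05, against 558 of all genes. DESeq2 called 0 of the 15 as well. Between WT22M and WT25F, which share the wild-type title but not the genotype field, 0 of 15 passed as well, against 0.714% of genes tested (0.178% higher and 0.535% lower). There mt-Tp had the largest log2 fold change, 0.39 (SE 0.24), and 0 of the 15 had an unadjusted p under 0.05, against 793 of all genes; DESeq2 called 0. These comparisons use WT25F, which has no replicate, and the lone libraries were assumed to vary like the KO libraries. They share WT25F, so their values are not independent.

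The authors' deposited tables marked 0 of the 15 genes in any comparison. The authors used a log2 threshold of 1 as well, and no value of the 15 genes reached that size. Their mark was given to 1.96% of genes for KO26F, 2.9% for KO23M and 3.62% for WT22M, each against WT25F. By the adjusted p of the authors' deposited tables alone, 7 mitochondrial genes were under 0.05 for KO26F (background 13.7%), 11 for KO23M (22.1%) and 7 for WT22M (22.4%). The log2 fold changes of the authors' deposited tables for these genes ran from -0.39 to 0.17 in KO26F, from -0.23 to 0.75 in KO23M and from -0.17 to 0.35 in WT22M. Each deposited comparison is between single libraries.

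Nuclear genes that copy, transcribe and process mitochondrial RNA did not pass either. Of 45 listed, 43 entered the test and 0 were called in either direction (0.0615% of all genes were called), with 21 on the higher side and a median log2 fold change of -0.0022, against 0.0020 over all genes. At an unadjusted p under 0.05 there were 0 of the 43, against 464 of all genes (2.86%). DESeq2 called 0 of the 43 and 11 of all genes. Polrmt stood at 59.7 CPM in KO26F and 64.7 in KO23M, against 64.4 in WT22M and 59.9 in WT25F, with the arms overlapping. Tfam, which also packs the mitochondrial DNA, stood at 47.3 and 49.7 CPM in KO26F and KO23M against 42.4 and 46.5 in WT22M and WT25F (log2 fold change 0.12, SE 0.11). Tefm, the elongation factor, had the lowest p of the list, at 7.06 and 5.02 CPM in KO26F and KO23M against 8.04 and 6.52 in WT22M and WT25F (log2 fold change -0.28, SE 0.22, unadjusted p = 0.232). Grsf1, an RNA-binding protein of mitochondrial RNA granules, stood at 0.12 and Mterf1b, a termination factor gene, at -0.33 on the log2 scale. Tfb2m, Lrpprc, Mtpap and Ppargc1a, the last a coactivator of mitochondrial biogenesis, stood at 0.014, 0.048, -0.0074 and -0.17 on that scale. Slirp had 3 counts in KO26F, 0 in KO23M, 0 in WT22M and 2 in WT25F and did not enter the test.

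Nuclear genes for subunits of the complexes that also hold mitochondrially encoded subunits did not pass. All 70 listed genes were tested and 0 were called, where 0.0615% of all genes were. At an unadjusted p under 0.05 there were 0 of the 70, against 464 of all genes (2.86%). DESeq2 called 0 of the 70 and 11 of all genes. On the higher side in KO were 22 of the 70 and on the lower side 48, where 50.7% of all genes tested were on the higher side, with a median log2 fold change of -0.029, where all genes had 0.0020. Their summed level was 7579 CPM in KO26F and 8313 in KO23M, against 8267 in WT22M and 7814 in WT25F, so the arms overlapped. The lowest p belonged to Atp5l, a membrane subunit of ATP synthase, at 11.8 and 12.4 CPM in KO26F and KO23M against 15.1 and 14.2 in WT22M and WT25F (log2 fold change -0.28, SE 0.17). Atp5k and Ndufb8 stood at -0.19 and -0.15 and Ndufa2 at 0.16 on the log2 scale.

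Markers of other tissues varied between libraries. Summed choroid plexus markers stood at 1021 CPM in KO26F, 795 in KO23M, 206 in WT22M and 963 in WT25F, and erythroid markers at 1775, 1552, 1356 and 2167 in the same order. Diencephalon markers stood at 44.9, 41.0, 40.1 and 102, microglia markers at 89.8, 95.5, 114 and 100.4, and genes of dissection stress at 182, 214, 203 and 181. None of these markers was at 0 in any library, and the part of these tissues in the mitochondrial values was not tested.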

How the data were processed

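Gene counts of 4 RNA-seq libraries of embryonic mouse forebrain were used. Per the labels' protocols, a TruSeq kit was used on total RNA, and the submitters' processing notes name Bowtie2 2.2.3, TopHat2 2.0.12, HTSeq 0.6.0 and mm9. The sources used here name neither the strand setting nor the treatment of multiply mapped reads. Each of the 3 deposited tables sets 1 library beside WT25F and holds a raw count per gene, as the authors deposited it, and the authors' normalized value in CPM, log2 fold change, p-value and adjusted p-value, per the file headers. All 15 mitochondrial genes have the position and strand of GENCODE vM21 on GRCm38, as do 91.8% of all matched genes in position, so coordinates are given on that build, which differs from the one in the notes.

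The tables were joined by gene identifier with absent genes set to 0. Here CPM is the count scaled to 1000000 per joined library total, and 3 counts, the limit a count of 0 allows, are 0.162 to 0.169 CPM. Counts of all genes were tested with edgeR 4.0.16 (quasi-likelihood, robust, TMM, filterByExpr, Benjamini-Hochberg threshold 0.05, 16252 genes) in R 4.3.3. A model of 3 groups gave the contrasts of KO and of WT22M with WT25F. On simulated counts with 200 genes changed, the test of KO against carriers recovered 35.8% of the 1.5-fold, 71.6% of the 2-fold and 87.9% of the 4-fold changes, with 4 unchanged genes called. The simulated libraries shared the mean of each unchanged gene, scaled to depth. Differences in tissue between libraries thus entered only through the general spread, and the rates pool genes of all levels. Windows of 50 and of 100 bases were sought in GENCODE vM21 transcripts, and copies were aligned with Biopython 1.88. Alternatives were RLE, DESeq2 1.42.0, other filters, scaling without mitochondrial genes, a block on the title letter, each library left out, and, chosen after seeing the data, sums with nuclear copies.

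The genes and lists were chosen with earlier results of these data known. Genes with a mean of at least 100 counts are named with values, as are 8 fixed nuclear regulators, the 4 regulators and 4 nuclear subunits with the lowest p, and fixed copies with at least 100 counts. Gm10222, Gm13340, Tbr1, mt-Nd3 and mt-Nd4l were named outside this rule, after their values were seen.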

Additional observations from a re-analysis of the deposited data

Results flagged for a closer look

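mt-Nd1, a complex I subunit, was on opposite sides in the F and M libraries by counting intervals, in F only just. On the log2 scale KO26F over WT25F stood at 0.016 (95% counting interval 0.00055 to 0.031), while KO23M over WT22M stood at -0.14 (-0.16 to -0.13). The F value minus the M value was 0.16. Each title letter has 1 library per arm, so the difference was not tested. The counting intervals hold the scaling between libraries fixed and leave out spread between embryos. In the edgeR fit of KO against carriers, mt-Nd1 had an SE of 0.092.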

How the results depend on the processing

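Between KO libraries and carriers, 0 of the 15 genes were called under RLE size factors, scaling without mitochondrial genes, DESeq2, both filters, sums with nuclear copies and each library left out. With the title letter as a replicate block the count was 2, mt-Rnr1 (log2 fold change -0.23) and mt-Rnr2 (-0.22). That fit called 123 genes in all, against 10 without the block, and leaves 1 residual degree of freedom. Deviations from the arm means of libraries that share a letter had a correlation of 0.226 across genes, and the letters are not stated to mark a litter or batch. Against WT25F, and for WT22M against WT25F, 0 of the 15 genes were called under the alternatives run. For the 2 nuclear lists the count was 0 throughout, the block included. Over all genes, leaving out a library gave 48 to 100 calls (100 without WT25F) in place of 10. Against WT25F the KO libraries gave 27 calls with DESeq2, 6 with the spread of the 2 arms and 0 without a filter, in place of 56, and WT22M gave 33, 0 and 0 in place of 116.

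The sign of 5 log2 fold changes, none of them called, depended on the setting. With each library left out they ranged from -0.0068 to 0.066 for mt-Co1, from -0.057 to 0.27 for mt-Atp6, from -0.092 to 0.13 for mt-Co3 and from -0.15 to 0.23 for mt-Nd4l. Summed with their copies, mt-Nd3 was at -0.056, in place of 0.44, the farthest from 0 of the 15, and mt-Nd4l at -0.10. With each library left out, the log2 fold change of mt-Nd1 ran from -0.12 to -0.012, of mt-Cytb from -0.050 to -0.016 and of mt-Tp from -0.41 to -0.013 (the last without WT22M). The cause was not tested. Of 164 values for single genes, 155 kept side and call. The KO minus carrier share of mitochondrial counts ran from -0.0839 to 0.00786 percentage points with each library left out, and from -0.0383 to -0.0277 under other definitions. Counts of 14 to 18 in mt-Nd4l limit what can be seen there.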

Other observations

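The rRNA genes and the title letters showed a pattern that follows neither arm. mt-Rnr1 counts were 87.2% of mt-Rnr2 counts in KO26F and 97.7% in KO23M, against 97.6% in WT22M and 88.4% in WT25F, so the libraries with the letter F lay together, and so did those with M. Each letter has 2 libraries, and the difference was noticed in these data and not tested.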
